A study of Drosophila melanogaster with 2 samples.

Results

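The mitochondrial ribosomal protein genes of Drosophila melanogaster were examined in a ChIP-seq study of tx (taxi, or delilah), a transcription factor with a basic helix-loop-helix (bHLH) DNA-binding domain. In ChIP-seq, the DNA that a protein contacts is precipitated with an antibody and sequenced. The genes were taken as all protein-coding genes of the Ensembl annotation whose symbol begins with mRpL or mRpS, which gave 73 of the 13945 protein-coding genes on 6 chromosome arms. Of these, 47 encode proteins of the large subunit and 26 of the small subunit. The study held 1 group, with 2 biological replicates and no second condition. Embryos of mixed sex, 0 to 24 h old, came from the strain tx-GFP, a transgenic line stably carrying tx with GFP at its C-terminus. Whole animals were pooled, so the lists average over all embryonic tissues, and chromatin was sonicated to a size range of 200 to 800 bp. An antibody against GFP was used for the precipitation. Both replicates were called against 1 shared control, and embryos lacking the tagged protein were not analysed here, so signal that does not come from tx was not measured. The read depth behind the peaks is unknown.

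The mitochondrial ribosome translates the few messages that the mitochondrial genome encodes, which are core subunits of the respiratory chain and of the ATP synthase. All of its proteins are encoded in the nucleus, made in the cytosol and imported, so their supply depends on nuclear promoters. In the compact fly genome many genes lie head to head with a gene on the other strand, and both then share a short stretch of DNA between their start sites. Proteins of the bHLH class bind the E-box, CANNTG.

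A gene is called bound here when a summit of the optimal set lay within 1000 bp of any of its transcription start sites (TSSs). The optimal set is the 3102 peaks that the authors kept by the irreproducible discovery rate (IDR), and the rank of a peak is its place by the authors' signal value, with 1 the strongest. By this rule 25 of 73 mitochondrial ribosomal protein genes were bound (34.2%, 95% Wilson interval 24.4 to 45.7%), against 2631 of all 13945 protein-coding genes (18.9%, interval 18.2 to 19.5%). These intervals cover the counting of genes only. The bound members spanned nearly the whole range of peak strength, from rank 8 to rank 3090. Their median rank was 1373, against 1333 over all bound genes, and 13 of the 25 lay among the 1551 strongest peaks of the set.

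The arrangement of the genes went along with the share bound. A divergent partner is a protein-coding gene on the opposite strand whose TSS lies 0 to 1000 bp upstream of that of the member. Among members, 58 of 73 had one, against 5052 of 13945 genes. All 25 bound members were among these 58, a share of 43.1% (interval 31.2 to 55.9%), against 34.1% of all genes with a divergent partner (1725 of 5052, interval 32.8 to 35.5%). None of the 15 members without a partner was bound, with an interval that reaches 20.4%, against 10.2% of all genes without one (906 of 8893). With this distance the interval of the members included the share of all genes within each arrangement. That turned for members with a partner when the summit had to lie within 500 bp (43.1%, interval 31.2 to 55.9%, against 30.7% of such genes) or within 2000 bp (55.2%, interval 42.5 to 67.3%, against 38.2%), where the interval lay above the share of all genes. Members with 1 annotated TSS and a partner were bound in 22 of 53 cases (41.5%, interval 29.3 to 54.9%), against 30.2% of such genes overall. When each summit was given only to the gene with the nearest TSS, 10 members remained bound (13.7%), against 13.2% of all genes.

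**Figure D1:**
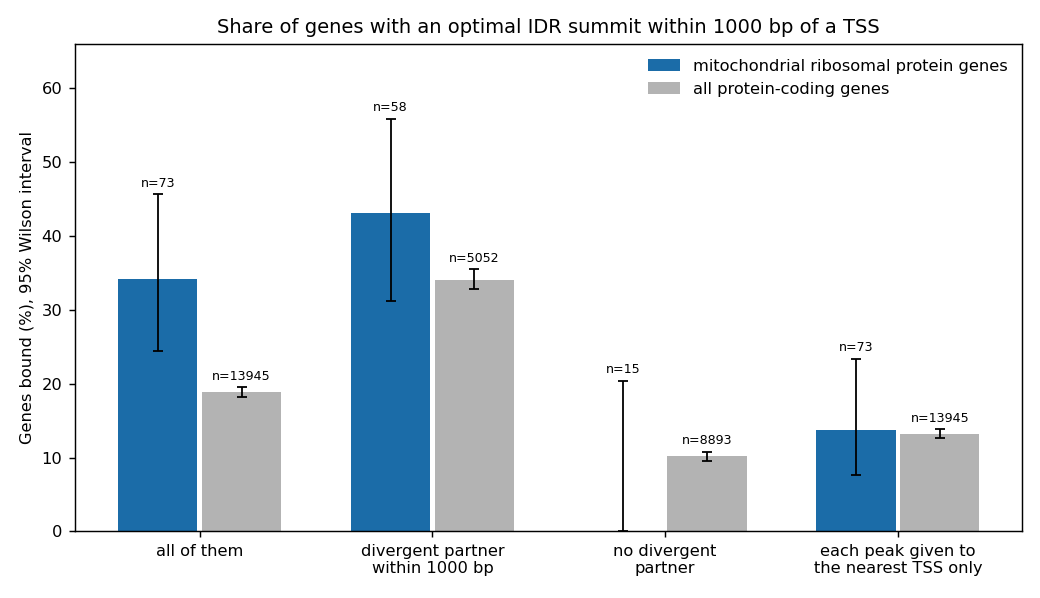
Share of genes bound (percent, vertical axis from 0) for mitochondrial ribosomal protein genes (blue, left bar of each pair) and for all protein-coding genes (grey), with 95% Wilson intervals as error bars and the number of genes above each. The bars stand at 34.2% and 18.9% over all genes, at 43.1% and 34.1% with a divergent partner, at 0% and 10.2% without one, and at 13.7% and 13.2% when a peak counts only for the nearest TSS.

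The spacing of the pairs varied. With 101 to 300 bp between the TSSs, 10 of 15 members were bound (66.7%, interval 41.7 to 84.8%), against 39.1% of all genes with that spacing. With up to 100 bp it was 5 of 18 members (27.8%), against 33.2%. With 301 to 500 bp it was 8 of 20 members (40%), against 37.2%, and with 501 to 1000 bp it was 2 of 5 members, against 24.8%. The spacing of 101 to 300 bp was the only class in which the interval of the members lay above the share of all genes, and these 4 classes had no test.

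A group of 4 strong peaks led the members. The gene mRpL41, on 2R from 15217024 to 15217617 (dm6, minus strand), had the peak of rank 8, with an authors' signal of 916.1. Its summit lay 134 bp upstream of the TSS, in intergenic DNA before CG8079. The small subunit gene mRpS10, on 3R from 15229665 to 15230516, had the peak of rank 11 and a signal of 865.6. That summit lay 136 bp upstream, 121 bp from the TSS of Art3, which encodes a protein arginine methyltransferase. The gene mRpS23, on 2L from 13834250 to 13835072, had the peak of rank 20 and a signal of 737.5. Its summit was the farthest of all bound members from their own TSS, at 382 bp upstream, and lay 110 bp from the TSS of CenG1A, a gene for a GTPase-activating protein. The gene mRpL23, on 3L from 2372844 to 2373704, followed with rank 66 and a signal of 425.3. The next member, mRpL34, ranked 410 with a signal of 185.3. For scale, the strongest peak of the optimal set had a signal of 1473, the median was 91.2 and the lowest 58.5.

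These 4 peaks held close ranks in both replicates. In the lists of replicate 1 and replicate 2, mRpL41 ranked 9 and 7, mRpS10 ranked 12 and 9, mRpS23 ranked 15 and 26, and mRpL23 ranked 68 and 64.

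The DNA under 4 summits, picked after their values and letters were seen, is shown because it holds what the peaks were centred on: 60 bases either side of the summit from the RefSeq Release 6 genome, read 5′ to 3′ on the plus strand, with any CANNTG in capitals. The windows of mRpS10 and mRpL24 hold no E-box. That of mRpS23 holds 2, CATGTG within 50 bp of the summit and CACTTG farther out, at the end of the window. That of mRpL16, the 1 bound member on the X, holds 2, of which CACGTG spans the summit.
mRpS10, chr3R:15229469-15229589, + strand: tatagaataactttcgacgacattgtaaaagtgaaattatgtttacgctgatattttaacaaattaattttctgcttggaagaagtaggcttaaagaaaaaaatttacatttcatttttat
mRpS23, chr2L:13835394-13835514, + strand: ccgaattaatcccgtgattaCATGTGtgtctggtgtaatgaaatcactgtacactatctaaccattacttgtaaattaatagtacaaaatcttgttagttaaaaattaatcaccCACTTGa
mRpL24, chr2L:4945452-4945572, + strand: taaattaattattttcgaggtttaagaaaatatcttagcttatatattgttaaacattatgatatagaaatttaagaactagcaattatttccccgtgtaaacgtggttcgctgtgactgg
mRpL16, chrX:1890084-1890204, + strand: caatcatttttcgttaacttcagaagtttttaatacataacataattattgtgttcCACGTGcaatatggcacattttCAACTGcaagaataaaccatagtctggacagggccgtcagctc

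The next members by strength were mostly of the large subunit, as were 16 of the 25 bound members and 47 of all 73 members. After mRpL34 (173 bp upstream of its TSS, partner Dg, the gene for dystroglycan) came mRpL4 at rank 726 and mRpL53 at rank 761, whose partner AGO1 encodes the Argonaute of the microRNA pathway. The peak of mRpL24 ranked 812, 151 bp upstream of its TSS and 67 bp from that of betaggt-I, a subunit of geranylgeranyl transferase. Those of mRpL47 and mRpS2 ranked 926 and 1000. The mRpS2 summit lay 219 bp upstream of its own TSS and 3 bp from that of Mon1, a gene of endosome maturation. The peaks of mRpL18, mRpL11 and mRpL35 ranked 1122, 1339 and 1373, with signals of 110.4, 100 and 98.22. That of mRpL21, which faces the chromatin remodelling gene rept, ranked 1560, and that of mRpS7, which faces the cell cycle kinase gene Cdk1, ranked 1718. In the lists of replicate 1 and replicate 2, mRpL34 ranked 506 and 322, mRpL4 ranked 799 and 825, and mRpL24 ranked 809 and 950. Over the same lists mRpL53 ranked 685 and 1271, mRpS2 ranked 1045 and 857, mRpL18 ranked 1356 and 898, and mRpL11 ranked 1282 and 2060. The peak of mRpL35 ranked 1896 and 1035 in them, and that of mRpS7 1765 and 1960. Left out here are mRpL47 and mRpL21, whose replicate ranks differed by factors of 2.84 and 5.09 and are described below. Both were picked there for the size of that difference, so smaller differences at the members given here follow from the choice.

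The remaining 10 bound members, from mRpL20 at rank 1829 to mRpS6 at rank 3090, had signals from 82.5 to 58.66. The last 3 were mRpS22 at rank 2498 (signal 67.45), mRpS21 at rank 2983 (60.11) and mRpS6 at rank 3090. The next members below the optimal set were mRpL50 at rank 3665 of the pooled relaxed list, mRpS16 at rank 4114 and mRpL54 at rank 4287. In replicate 1 and replicate 2, mRpL50 ranked 4858 and 2412, mRpS16 ranked 4327 and 27340, and mRpL54 ranked 4117 and 27769. Their summits lay 80, 88 and 136 bp upstream of a TSS in that order, and all 3 have a divergent partner.

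The pooled relaxed list, which holds 30000 peaks and includes weak ones meant as background for the IDR method, had a summit within 1000 bp of 67 of 73 members (91.8%), against 62.9% of all genes. Of the 15 members without a partner 13 had one there (86.7%, interval 62.1 to 96.3%), against 51.2% of all genes without a partner. For the 42 members found in it alone the ranks ran from 3665 to 26199, the last being mRpL14. No summit lay within 1000 bp of the other 6, which are mRpL22, mRpL30, mRpL40, mRpS14, mRpS29 and mRpS35. Of these, mRpL22 (1615 bp) and mRpL40 (1957 bp) lay nearest to an optimal summit, and mRpS29, which corresponds to the human protein DAP3, lay 22765 bp from one. The unbound mRpS5 was the farthest of all members, 1658343 bp from the nearest optimal summit.

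**Figure D2:**
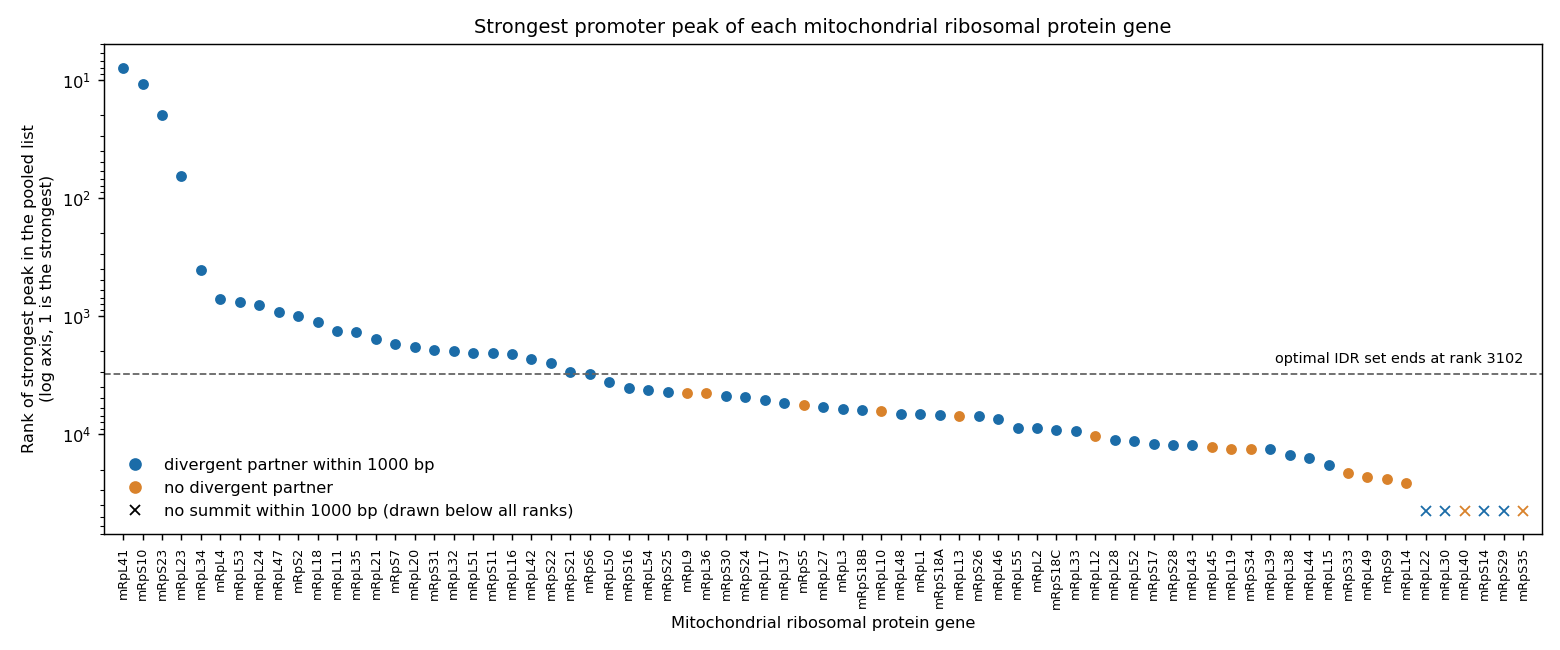
Rank of the strongest peak within 1000 bp of a TSS for each of the 73 genes (log axis, 1 the strongest, at the top), ordered by rank, in blue with a divergent partner and in orange without one. The 4 strongest stand above rank 100, the 25 above the dashed line at rank 3102 are bound and all blue, and the 6 crosses have no summit.

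Shares bound were close between the subunits. Of the large subunit 16 of 47 genes were bound (34%, interval 22.2 to 48.3%), and of the small subunit 9 of 26 (34.6%, interval 19.4 to 53.8%). Peaks of the large subunit had a median rank of 1230.5, and those of the small subunit 1930, although mRpS10 and mRpS23 were among the strongest. Proteins up to L36 and S21 carry numbers also used for bacterial ribosomes, whereas higher numbers were given mostly to proteins first known from mitochondria. Of the 42 members with the lower numbers 17 were bound (40.5%, interval 27 to 55.5%), and of the 31 with higher numbers 8 (25.8%, interval 13.7 to 43.2%), so the intervals overlap.

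By chromosome arm, 6 of 12 members were bound on 2L (50%), against 17.7% of all genes there, 5 of 12 on 2R (41.7%), against 18.2%, 5 of 17 on 3L (29.4%), against 19.5%, and 8 of 21 on 3R (38.1%), against 21.4%. On the X only mRpL16 was bound, 1 of 11 members (9.09%, interval 1.62 to 37.7%), against 16.9%. The interval of the X overlaps that of each other arm. In the pooled relaxed list 8 of the 11 members on the X had a summit (72.7%), against 64.3% of all genes there, and the 3 without one were mRpL22, mRpL30 and mRpS14.

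Summits lay upstream of the members. The median distance to the nearest TSS of the member was 151 bp, with a range of 9 to 382 bp, against 156 bp over all bound genes. Of the 25 summits, 24 were upstream (96%), against 84.4% for all bound genes and 87% for those with a partner. The exception was mRpL23, with its summit 37 bp downstream of a TSS. In 21 of 25 pairs the summit lay between both start sites (84%), against 67.1% of all bound genes with a partner. In 15 of 25 the summit was closer to the start site of the partner than to that of the member, against 772 of 1725 bound genes with a partner. The TSS of the member was the nearest of any protein-coding gene in 10 of 25 (40%), against 52.9% of bound genes with a partner. By annotation 20 summits were intergenic, 4 lay in a 5′ UTR and 1, that of mRpL53, in an intron. The 4 summits that did not lie between the start sites were that of mRpL23 and those of mRpL18, mRpL11 and mRpL51, which lay beyond the TSS of the partner. Every one of the 25 peaks counted for the partner as well, by the same rule of distance. For the 24 upstream summits this follows from the rule, since summit and partner TSS both lay within 1000 bp upstream. The share over all bound genes with a partner is not given. The data cannot assign these peaks to 1 gene of a pair. No 2 members shared a peak.

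**Figure D3:**
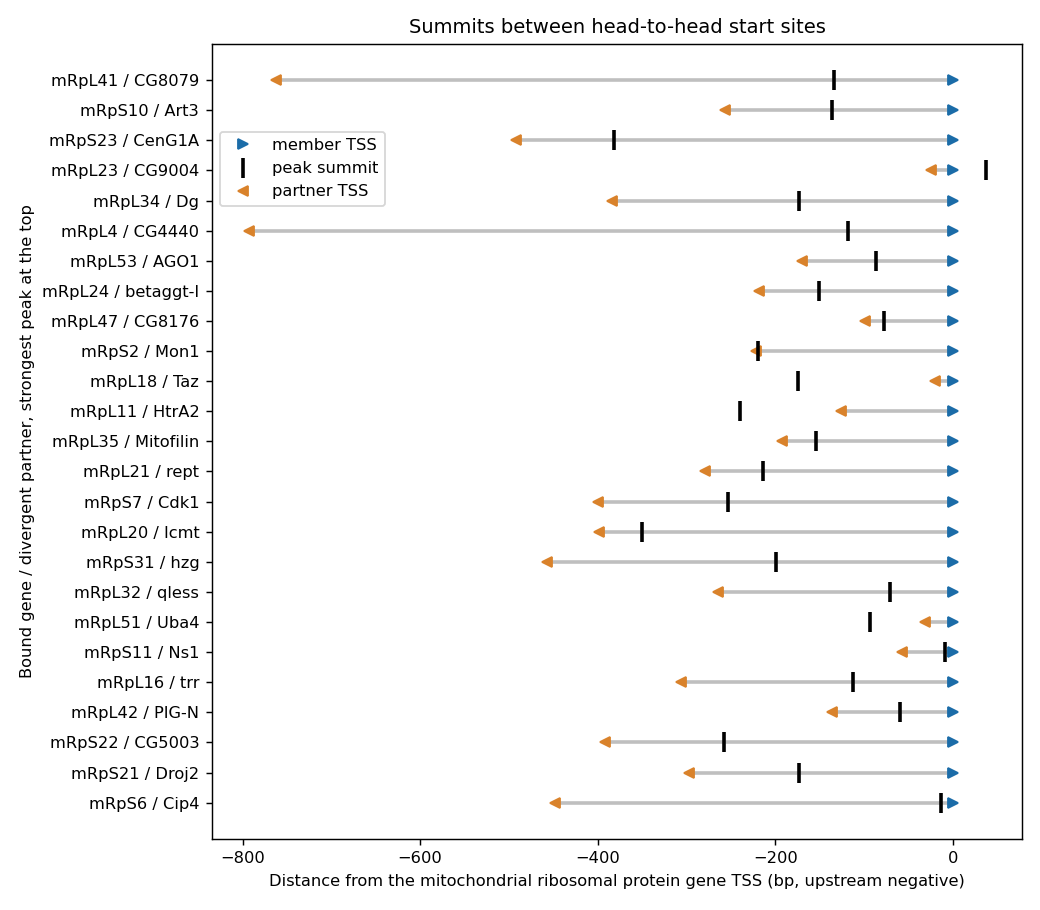
Position of the peak summit (black bar) on a line from the TSS of the divergent partner (orange, left) to the TSS of the mitochondrial ribosomal protein gene (blue, at 0), in bp with upstream negative, for the 25 bound genes with the strongest at the top. In 21 of 25 rows the black bar lies between the arrows, and in 15 it lies closer to the orange one.

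The partners are diverse. Those named here were picked after the values were seen, and no list of functions was compared. They include Taz (partner of mRpL18), the cardiolipin transacylase tafazzin, HtrA2 (of mRpL11), a mitochondrial protease, Mitofilin (of mRpL35), an organiser of the cristae, and qless (of mRpL32), an enzyme of coenzyme Q synthesis. Others encode trr, a histone methyltransferase (of mRpL16), Ns1, a nucleostemin GTPase (of mRpS11), Icmt, which methylates prenylated proteins (of mRpL20), PIG-N, of the GPI anchor pathway (of mRpL42), and Uba4, of tRNA thiolation (of mRpL51). Of the 33 unbound members with a partner, 3 had a partner that was itself bound, with no such share given for all genes. The 3 were mRpL2 (partner FoxK, a forkhead factor), mRpL33 (norpA, the phospholipase C of phototransduction) and mRpL22 (if, an integrin subunit). Their own TSSs lay 1991, 1917 and 1615 bp from the nearest optimal summit.

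Across replicates, all 25 bound members had a summit within 100 bp of the pooled one among the relaxed peaks of replicate 1, and 24 among those of replicate 2. Both lists held 24 of 25 (96%), against 91.5% of the 1760 peaks at bound genes. Among the 3102 strongest peaks of each replicate, 24 of the 25 were found in replicate 1 (96%), against 89.7% of those 1760, and 19 in replicate 2 (76%), against 76.2%. Ranks in both lists correlated across the 24 with Spearman's rho 0.691, a description over peaks that share libraries and a control. The peak of mRpS21 ranked 4183 in replicate 1 and had no counterpart in replicate 2. The ranks differed most for mRpS22, at 1729 in replicate 1 and 13491 in replicate 2, a ratio of 7.8, and for mRpL21, at 1102 and 5610. The peak of mRpL47 ranked 1373 in replicate 1 and 483 in replicate 2, and that of mRpL42 1739 and 4552.

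Weaker pooled peaks were held more often by replicate 1 than by replicate 2, at members and at genes in general. Of the 42 members with only such a peak, 39 had a counterpart in replicate 1 (92.9%), against 75.4% of the 4854 such peaks at all unbound genes, and 16 in replicate 2 (38.1%), against 39.8%. Among the 3102 strongest of replicate 1 there were 0, against 2.84% of those peaks, and among those of replicate 2 there were 4 (9.52%), against 4.31%. The 4 were mRpS5 (rank 2408), mRpL50 (2412), mRpL27 (2560) and mRpL37 (2856). In replicate 1 these ranked 21181, 4858, 8907 and 11304. Of these 4, mRpS5 has no divergent partner, so with replicate 2 alone 1 such member would be called bound.

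**Figure D4:**
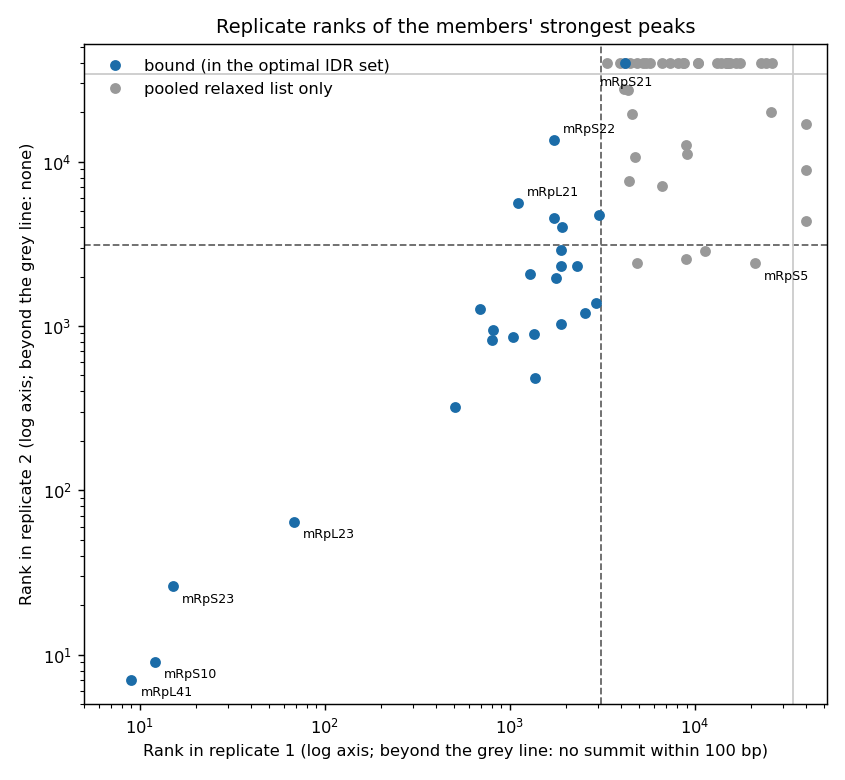
Rank of the strongest peak of each gene in replicate 1 (horizontal) and replicate 2 (vertical), both on log axes, for bound genes (blue) and genes with a peak only in the pooled relaxed list (grey). Dashed lines mark rank 3102, and points beyond the solid grey lines had no summit within 100 bp in that replicate. The 4 strongest genes hold close ranks in both replicates, and mRpS22 and mRpS21 are far weaker or missing in replicate 2.

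Among the motifs searched, CAGCTG stood out in the promoters of the members, whether bound or not. CAGCTG is an E-box that reads the same on both strands, and it is 1 of the forms that CANNTG covers. In windows from 250 bp before to 50 bp after the most 5′ TSS it occurred in 40 of 73 members (54.8%, interval 43.4 to 65.7%), against 17.7% of all genes and 22% of all genes with a divergent partner. The large subunit had it in 27 of 47 promoters and the small subunit in 13 of 26. It occurred in 15 of 25 bound members (60%, interval 40.7 to 76.6%) and in 25 of 48 unbound members (52.1%, interval 38.3 to 65.5%). Members without a partner, none of them bound, had it in 9 of 15 promoters. Read the other way, 15 of 40 members with CAGCTG were bound (37.5%), against 10 of 33 without it (30.3%). Over all genes it was 24.8% with and 17.6% without.

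These words sat at the start site. The 50 bp from the TSS onward held CAGCTG in 30.1% of members, against 4.54% of all genes, and the 50 bp before it in 17.8%, against 5.26%. Within 50 bp of the start site in all, 35 of 73 members had it (47.9%), against 9.3% of all genes, and the share was 12 of 25 in bound members (48%) and 23 of 48 in unbound members (47.9%). The longer word CAGCTGTT, or AACAGCTG on the other strand, was not among the motifs searched at the summits. It and the window around the start site were taken up after the data were seen, so these counts are a description and not a test. It occurred there in 25 of 73 members (34.2%), against 4.55% of all genes. Among those with CAGCTG there, 25 of 35 members had the longer word, against 634 of 1297 of all genes. It stood in 11 of 25 bound members (44%) and in 14 of 48 unbound members (29.2%), against 7.34% of all bound genes.

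**Figure D5:**
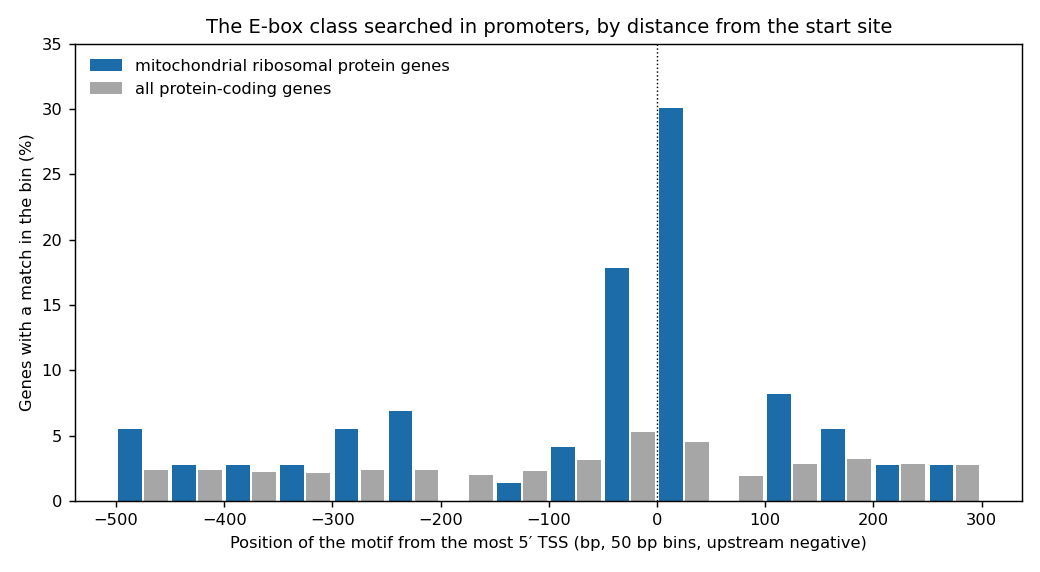
Share of genes (percent) with a CAGCTG in each 50 bp bin by distance from the most 5′ TSS (bp, upstream negative, dotted line at the TSS), for mitochondrial ribosomal protein genes (blue) and all protein-coding genes (grey). The blue bars rise to 17.8% and 30.1% in the bins on either side of the TSS, where the grey bars stand at 5.26% and 4.54%.

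Stretches of 30 bases around CAGCTG, in capitals, are given on the strand of the gene from the Release 6 genome so that sites of bound and unbound members can be read side by side. They are 12 of 31 stretches written out, each the one nearest the TSS of its gene. The 31 do not cover all 40 members with the word, since members on an arm whose sequence is not printed were left out. Among those left out are mRpL41, the bound member with the strongest peak, with the word 9 bp before its TSS, and mRpL53, with it 16 bp after. Shown from the 31 are the 6 of bound members with the strongest peaks, then the 6 of unbound members with the weakest peaks or none. On the strand of the gene, the word was followed by TT in 18 of the 31 and in 6 of the 12 shown. Sites with AACAGCTG but no TT after it, such as that of mRpL24, are not in these counts. The first set is from bound members.
mRpL23, chr3L:2373715-2373744, - strand: gtggttgacaatCAGCTGtttaaaacaagt
mRpL24, chr2L:4945324-4945353, - strand: ttcagttctcaaCAGCTGattgcaagccgc
mRpL47, chr3R:9515873-9515902, - strand: ttgttattgcttCAGCTGttttgttcggtc
mRpS2, chr2L:4850413-4850442, - strand: aacactacccacCAGCTGtttaccaaaatc
mRpL11, chr3R:14511821-14511850, + strand: cagcaataccatCAGCTGttgctgcttctt
mRpL35, chr3R:22023510-22023539, + strand: gtgaatggcacaCAGCTGactgttacgcga

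The second set is from members that were not bound. For mRpL40 and mRpS35 no list of pooled peaks held a summit within 1000 bp.
mRpS34, chr3L:16348064-16348093, + strand: agccagccggcaCAGCTGttcgaccttccc
mRpS33, chr3R:16436566-16436595, - strand: gcacttggaaatCAGCTGtcgcttgttttt
mRpS9, chr3R:7902710-7902739, - strand: ggcgccaaaaatCAGCTGaaagcttgtgtg
mRpL14, chrX:2344704-2344733, - strand: gtccgctcttaaCAGCTGcttgctctgtta
mRpL40, chr3R:11407929-11407958, + strand: cagcaacaaaaaCAGCTGttcgtacattac
mRpS35, chr3L:2780875-2780904, + strand: agtttctgtaaaCAGCTGattgcttgctat

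At mRpL23 the word began 28 bp before the TSS, at mRpL11 5 bp before it and at mRpL24 20 bp after it. Among unbound members it began 72 bp before the TSS at mRpL14, 12 bp before it at mRpS35 and 23 bp after it at mRpL40.

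Most summits lay away from CAGCTG. Of the 25 bound members 17 had a CAGCTG within 500 bp of the summit, at a median of 106 bp and a range of 24 to 379 bp. Only 3 lay within 50 bp, those of mRpS2, mRpL11 and mRpS6. At mRpS2 and mRpL11 this was not the word at the start site, which stood 11 and 5 bp before the TSS. The summits of these genes lay 219 and 240 bp upstream. The 3 make 12% of summit windows with CAGCTG, against 5.62% of the 1760 windows at all bound genes. With 25 bp either side it was none of the 25, against 2.67% of all, and with 100 bp either side it was 7 of 25 (28%), against 13.2%. Any CANNTG stood within 50 bp of 14 of 25 member summits (56%), against 37.2%. The DREF site TATCGATA occurred in no summit window of a bound member, against 4.03% of all windows, but in 20.5% of the members' promoters, against 9.36% of all promoters. The core promoter words GGTCACAC and CATCNCTA were also absent from the 25 windows, against 1.59% and 4.38% of all. Each stood in 11% of the members' promoters, against 7.7% of all promoters for GGTCACAC and 6.42% for CATCNCTA. In promoters of all bound genes TATCGATA stood in 14.5%, GGTCACAC in 11.3% and CATCNCTA in 13%. In promoters of bound members these shares were 20%, 4% and 8%. With 100 bp either side of the summit TATCGATA stood in 2 of 25 member windows (8%), against 8.01% of all, and CATCNCTA in 1 (4%), against 8.47%. The word TATAAA stood in 6 of 25 windows (24%), against 15.9%. With 25 bp either side TATAAA stood in 3 of 25 (12%), against 7.84%, and with 100 bp in 7 of 25 (28%), against 29.8%. The mean GC content of the windows was 35.3% (SD 10.1, n = 25), against 37% (SD 9.12, n = 1760) at all bound genes. Matches are matches of letters only, and each of the 6 motifs was searched on both strands. The longer word CAGCTGTT is not among these.

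Other genes that serve the same ribosome give a frame for these values. Of the subunit genes with symbols outside the rule, tko, which encodes protein S12, was bound by a peak of rank 2875, 25 bp upstream of its TSS. Its replicate ranks were 2733 (replicate 1) and 4138 (replicate 2). No divergent partner was annotated for it. The gene bonsai, which encodes S15, had no summit in the pooled list. Over all genes 18.9% were bound. Of 10 genes listed as mitochondrial translation factors, with Letm1 among them, 1 was bound (10%), the release factor gene mRF1 at rank 2780. Of 16 genes listed as mitochondrial aminoacyl tRNA synthetases, with Slimp among them, 2 were bound (12.5%), LeuRS-m at rank 587 and ArgRS-m at rank 1075. The LeuRS-m summit lay 813 bp upstream of its TSS, whereas 166 bp separate the start sites of LeuRS-m and its divergent partner Dhc64C. Of 18 genes for transcription, RNA processing and replication of the mitochondrial genome 4 were bound (22.2%), led by PNPase, a ribonuclease, at rank 9, followed by mtSSB, the single-strand binding protein, at rank 708, the DNA polymerase gamma subunit gene PolG2 at rank 2375 and the RNA polymerase gene PolrMT at rank 2587. The PolG2 peak ranked 14305 in replicate 2, and that of PolrMT had no counterpart in replicate 1.

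Among larger sets, 17 of 88 nuclear genes with oxidative phosphorylation symbols were bound (19.3%, interval 12.4 to 28.8%), against 18.9% of all genes. Of the cytosolic ribosomal protein genes it was 49 of 93 (52.7%, interval 42.6 to 62.5%). The 34.2% of mitochondrial ribosomal protein genes lies between both values, and its interval overlaps each of theirs. With a divergent partner 31.8% of oxidative phosphorylation genes and 60.7% of cytosolic ribosomal protein genes were bound, against 34.1% of all genes with a partner. Without one the shares were 6.82% and 40.5%, against 10.2%. The interval of the oxidative phosphorylation genes included the share of all genes in each case. The order for CAGCTG differed. Within 50 bp of the start site it occurred in 47.9% of the mitochondrial ribosomal protein genes, in 5 of 10 translation factor genes, in 8 of 16 synthetase genes, in 6 of 18 genes of mitochondrial genome transcription, RNA processing and replication, in both tko and bonsai, in 19.3% of oxidative phosphorylation genes and in 7.53% of cytosolic ribosomal protein genes, against 9.3% of all genes. Both larger sets were taken by symbol, so they also hold paralogs such as ND-24L, SdhAL and RpL22-like. Paralogs of this kind among the oxidative phosphorylation genes were all unbound, as was Sdhaf3, which lowers the share of that set. The lists have no test, and their genes were not matched for expression or arrangement.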

How the data were processed

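The authors deposited peak lists on dm6 and, not used here, on dm3. Per the text accompanying the files, each replicate and the pooled replicates have a relaxed list, and the optimal set derives from these by the irreproducible discovery rate. No source used here names the aligner or the peak caller. The signal column was deposited by the authors on a scale not stated, and served only to rank peaks within 1 list. The 3102 optimal peaks equal the strongest 3102 of the pooled list.

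Genes and TSSs came from Ensembl release 115 (BDGP6.54) and sequence from the RefSeq Release 6 genome. Genes on the Y were left out. Summits are the peak start plus the deposited offset. Replicate summits were matched within 100 bp. Motifs were searched 50 bp either side of summits and in promoters from 250 bp before to 50 bp after the most 5′ TSS, the promoter step being added after the data were seen. Shares carry 95% Wilson intervals. With 1 group and members and lists chosen with earlier results of these data known, no test was run. Named genes are the 15 strongest and 3 weakest bound members, the next 3, members with no summit, the 4 with the largest replicate differences and up to 4 bound genes per further list. Further members, named as examples or to account for a count, were chosen after their values were seen. No sequence from arm 2R is printed, so the CAGCTG stretches of members on that arm, mRpL41 and mRpL53 among them, were neither written out nor counted for TT. Python 3.11.15, numpy 2.4.6, scipy 1.17.1 and matplotlib 3.10.9 were used, and the scripts recovered 200 planted peaks in simulated lists.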

Additional observations from a re-analysis of the deposited data

How the results depend on the processing

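Replicates taken alone left 24 members bound each (32.9%), with 24 (replicate 1 alone) and 20 (replicate 2 alone) of them among the 25. All genes stood at 18.7% with replicate 1 and 18.1% with replicate 2, genes with a partner at 33.1 to 33.2% and those without at 9.59 to 10.5%. Median ranks of all bound genes were 1245 to 1348, or 1268 when the same peaks were ranked in replicate 2. For members, then all genes, the 1551 strongest peaks gave 13 genes (17.8%) and 10.6%, the pooled relaxed list 67 (91.8%) and 62.9%, summits within 500 bp 34.2% and 16.5%, within 2000 bp 46.6% and 23%, peaks overlapping a TSS 15 (20.5%) and 11%, and the nearest TSS 10 (13.7%) and 13.2%. With a partner, in the same order, the shares were 22.4% and 19.7%, 93.1% and 83.6%, 43.1% and 30.7%, 55.2% and 38.2%, 25.9% and 21.6%, and 17.2% and 19.4%. Without a partner they were 0% and 5.46%, 86.7% and 51.2%, 0% and 8.49%, 13.3% and 14.3%, 0% and 4.91%, and 0% and 9.74%. A partner within 500 bp gave 43.4% of members and 37.2% of genes with a partner, and 10% and 12% without. A partner within 300 bp left 33 such members. The cause of these shifts was not tested, other than that stricter rules admit fewer peaks. The interval of members with a partner lay above the share of all such genes in 2 of 10 settings (500 bp and 2000 bp), and that of members without one in 1 of 10 (pooled relaxed list). Otherwise it included that share. Summit windows of 25 and 100 bp held CANNTG in 36% and 84% of bound members, against 19.9% and 63.3% of all windows at bound genes, and CAGCTG in 0% and 28%, against 2.67% and 13.2%. Promoters from 100 bp before the TSS held CAGCTG in 52.1% of members and 12% of genes, those from 500 bp in 61.6% and 26%, and those at any TSS in 56.2% and 22.3%, choices made after seeing the data. Depth is unknown, so peaks missing from a list were not detected, not shown to be absent.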
